A study of Mus musculus with 6 samples.

Results

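Usp17la, Usp17lb, Usp17lc, Usp17ld, Usp17le, Tdpoz3, Tdpoz4, Tcstv1, Tcstv3 and Zfp352 are 10 genes from 4 families that are transcribed in the mouse embryo around the 2-cell stage, and they were taken by symbol from a table of 25567 entries (24421 genes and 1146 transposable element subfamilies). All 10 symbols were present. The table holds read counts from 6 bulk RNA libraries of mouse induced pluripotent stem cells (iPSCs), somatic cells reprogrammed to a state like that of embryonic stem cells. In 3 libraries, labelled SRF KO, the cells carried the deleted (SRFΔ/Δ) alleles of serum response factor, and in the other 3, labelled WT, they carried the floxed alleles without the deletion (SRFf/f). Both kinds of cells were kept in medium containing serum. Nothing in the labels tells if replicates were separate clones or cultures, if feeder cells were present, or how and when the deletion was made, so that p-values measure the spread between these libraries, which may be technical.

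The families have different protein products. The Usp17l genes, also known as Dub genes, encode deubiquitinating enzymes, which take ubiquitin off other proteins, and the first of them were found as genes induced by cytokines in blood cells. The Tdpoz genes encode proteins with a TRAF-type domain and a POZ domain, the domains found in the ubiquitin ligase adaptor SPOP. Tcstv1 and Tcstv3 encode short proteins named after the 2-cell stage, and Zfp352 encodes a zinc finger protein. In cultures of pluripotent cells such genes are known to be on in rare cells that pass through a 2-cell-like state, together with the Zscan4 genes and the endogenous retrovirus MERVL, so that a low level in bulk RNA can stand for few cells with much RNA or many cells with little, which bulk libraries cannot tell apart.

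The Usp17l copies lie in a pair of groups on chromosome 7 and resemble each other upstream of their RefSeq starts as well as in their coding parts. GENCODE M21 (GRCm38, the assembly that the mm10 build named in the submitters' processing notes corresponds to) places Usp17ld at chr7:103249737-103252505 (minus strand) and Usp17lc at chr7:103415072-103419880 (plus strand). Usp17le lies at chr7:104768049-104777470 (minus), Usp17lb at chr7:104840257-104842603 (minus) and Usp17la at chr7:104857009-104862667 (plus). The coding sequences of Usp17lc and Usp17ld were 98.4% identical over 1635 aligned bases, while the other pairs of the family were between 90.7% and 94.5% identical. RefSeq promoter windows (GRCm38.p6), which run from 250 bases before to 50 after an annotated start, were given for 6 of the 10 genes and for none of Usp17le, Tdpoz3, Tcstv1 and Tcstv3. In the windows of the 4 Usp17l copies a block of 133 bases aligned without gaps and was identical in all 4 at 116 positions (87.2%). The block is shown because these copies share it. They differ in 1 base of an AT-rich stretch near its end, given in capitals. The ends of the block were set by letters taken from these same sequences, with A or T allowed at that base. Part of the identity was thus fixed by this choice. The block lies before the RefSeq start of each window and overlaps no GENCODE exon. Between block and start are 35, 20, 77 and 99 bases, in the order printed. The RefSeq start of Usp17lc lies inside the gene as GENCODE bounds it, so that this copy's block is within those bounds as well. The blocks are at chr7:104856848-104856980 (plus strand), chr7:104842604-104842736 (minus), chr7:103416486-103416618 (plus) and chr7:103252605-103252737 (minus).
Usp17la: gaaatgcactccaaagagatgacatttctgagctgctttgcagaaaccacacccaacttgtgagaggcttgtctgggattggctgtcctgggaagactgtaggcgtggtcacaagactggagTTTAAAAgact
Usp17lb: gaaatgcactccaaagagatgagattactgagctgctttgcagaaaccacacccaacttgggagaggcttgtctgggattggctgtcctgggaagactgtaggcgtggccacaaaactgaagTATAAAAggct
Usp17lc: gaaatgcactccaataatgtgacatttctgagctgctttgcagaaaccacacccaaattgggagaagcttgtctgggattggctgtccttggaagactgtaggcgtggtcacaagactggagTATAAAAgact
Usp17ld: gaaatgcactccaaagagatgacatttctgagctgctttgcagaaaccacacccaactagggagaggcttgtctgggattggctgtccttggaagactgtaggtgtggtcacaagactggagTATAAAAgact

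Counted from 1 at the 5′ end of the block, and with Usp17lc as the reference, Usp17la carried 9 substitutions, Usp17lb 13 and Usp17ld 8. The substitution in the capitals was A124T, found in Usp17la alone among the 4. The letters TATAAA, searched on both strands, were therefore in the windows of Usp17lb, Usp17lc and Usp17ld and not in that of Usp17la. Of the 32851 windows of the table, 13.6% held them. The matches in the Usp17l copies are the same stretch of the shared block, whose end was set by these letters. They are thus not separate observations, and the share of all windows is no test of them. They began at -31 (Usp17lb), -88 (Usp17lc) and -110 (Usp17ld) from the RefSeq start. The core of the DUX motif, which double homeodomain proteins bind, and the CArG box, which SRF binds, were searched on both strands in the windows of these 4 copies, Tdpoz4 and Zfp352. Neither was found there, and over all windows they were in 0.033% and 1.63%. A match or its absence describes only these letters in this window.

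The window of Zfp352, a gene at chr4:90218820-90225702 (plus strand), was unlike those of the Usp17l copies. Its 250 bases before the start, chr4:90218570-90218819, consist largely of a short unit repeated in tandem, and are shown for that repeat, with TTAATCC in capitals.
Zfp352: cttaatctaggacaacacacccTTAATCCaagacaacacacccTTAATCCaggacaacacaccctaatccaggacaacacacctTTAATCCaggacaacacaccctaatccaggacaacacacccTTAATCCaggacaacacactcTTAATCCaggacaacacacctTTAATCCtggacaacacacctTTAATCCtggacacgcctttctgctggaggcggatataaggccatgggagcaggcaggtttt

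TTAATCC, chosen after the sequence was seen and searched on both strands, occurred 7 times in this window. It was in 2.23% of all windows at least once, and 7 was the most in any window.

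Total counts were between 26321602 and 36680156 per library. A gene at 0 may thus have had a level of up to 3 counts, which is 0.0828 to 0.117 CPM (counts relative to library size, scaled between libraries with the TMM method). That limit and all intervals of ratios here cover counting error only. The first principal component of all entries tested (76.2% of the variance) separated the groups, and on the second (10.4%) WT replicate 2 lay at -23.1 and the other libraries between -7.38 and 15.5. Srf, the deleted gene, was at 3.17 to 4.53 CPM (SRF KO) and 29.7 to 37.2 CPM (WT), which is -3.12 on the log2 scale (SE 0.13; adjusted p 8.1e-09 by edgeR's quasi-likelihood test). Over the 10 pluripotency markers fixed for the check of the label, all were detected, with a summed level of 5222 to 5334 CPM in SRF KO and 6274 to 6761 CPM in WT.

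Together the 10 genes received 146, 152 and 164 counts in SRF KO replicates 1 to 3 and 56, 45 and 44 counts in WT replicates 1 to 3. The sum stood at 5.61 ± 0.165 CPM in the SRF KO libraries against 1.61 ± 0.121 CPM in the WT libraries (SD, n = 3), and no SRF KO library overlapped a WT library. The Usp17l copies held 84.6% of these counts in SRF KO and 80.7% in WT, so that the sum is mainly a measure of that family.

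The deubiquitinase family was higher in SRF KO as a sum and in 4 of its 5 copies, and the groups overlapped in the other copy, Usp17ld. Over the 5 Usp17l copies the counts were 123, 125 and 143 in SRF KO and 44, 37 and 36 in WT. The summed levels were 4.75 ± 0.187 CPM (SRF KO) and 1.30 ± 0.119 CPM (WT; SD, n = 3), without overlap, and the spread within either group was a small part of the gap between them. The log2 fold change of the sum was 1.87 (SE 0.14, adjusted p 1.09e-06, edgeR's quasi-likelihood test fitted to all entries, with Benjamini-Hochberg adjustment over all 15609 of them; adjusted p-values of single genes are over the 15611 entries of the fit with separate copies, unless the filter is said to be left out). In that fit 20.4% of entries passed the threshold of 0.05 on the adjusted p as higher in SRF KO.

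Usp17le, the copy of highest level per exon length, had 62, 53 and 62 counts in SRF KO and 23, 22 and 20 in WT. All 3 SRF KO libraries lay above all WT libraries, at 2.002 to 2.304 CPM against 0.635 to 0.855 CPM. Its log2 fold change was 1.57 (SE 0.19, edgeR adjusted p 4.77e-05). It was also the one member that reached the minimum level of the filter on low counts, 0.365 CPM, in the libraries of both groups.

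Usp17la, a deubiquitinase gene that cytokines induce in blood cells, had 25, 21 and 30 counts in SRF KO and 6, 7 and 3 in WT. Its neighbour Usp17lb had 15, 25 and 26 counts in SRF KO and 9, 2 and 4 in WT. Usp17lc had 15, 21 and 21 counts in SRF KO and 6, 6 and 4 in WT. In each of these 3 copies the lowest SRF KO library was above the highest WT library, with SRF KO replicate 1 the lowest of Usp17lb and Usp17lc and replicate 2 the lowest of Usp17la. The log2 fold changes were 2.36 for Usp17la (SE 0.33, edgeR adjusted p 0.000166), 2.25 for Usp17lb (SE 0.39, 0.00076) and 1.95 for Usp17lc (SE 0.33, 0.000673). These copies passed the filter on low counts through the SRF KO libraries alone, so that they could be tested only because they were high there. Usp17la and Usp17lb lie next to each other on opposite strands and point away from each other. The Usp17lc locus also holds an annotated miRNA gene, Gm25774, on the same strand.

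Usp17ld, the near copy of Usp17lc, was the least abundant of the family and did not pass the filter. It had 6, 5 and 4 counts in SRF KO and 0, 0 and 5 in WT. WT replicate 3 alone gave all of its WT counts, and at 0.174 CPM it lay within the SRF KO range of 0.138 to 0.223 CPM. The ratio of pooled counts, SRF KO over WT, was 3.30, with a 95% counting interval (exact, Clopper-Pearson) of 1.14 to 11.6. With WT replicate 3 left out, the remaining WT libraries are at 0. Taking 3 counts over both of them as the floor gives a ratio of 3.76. That ratio is no lower limit, since it leaves out the counting error of the 15 SRF KO counts. The ratio of group means was 1.66 on the log2 scale with all libraries, and 1.08 without WT replicate 1 or without WT replicate 2.

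**Figure D1:**
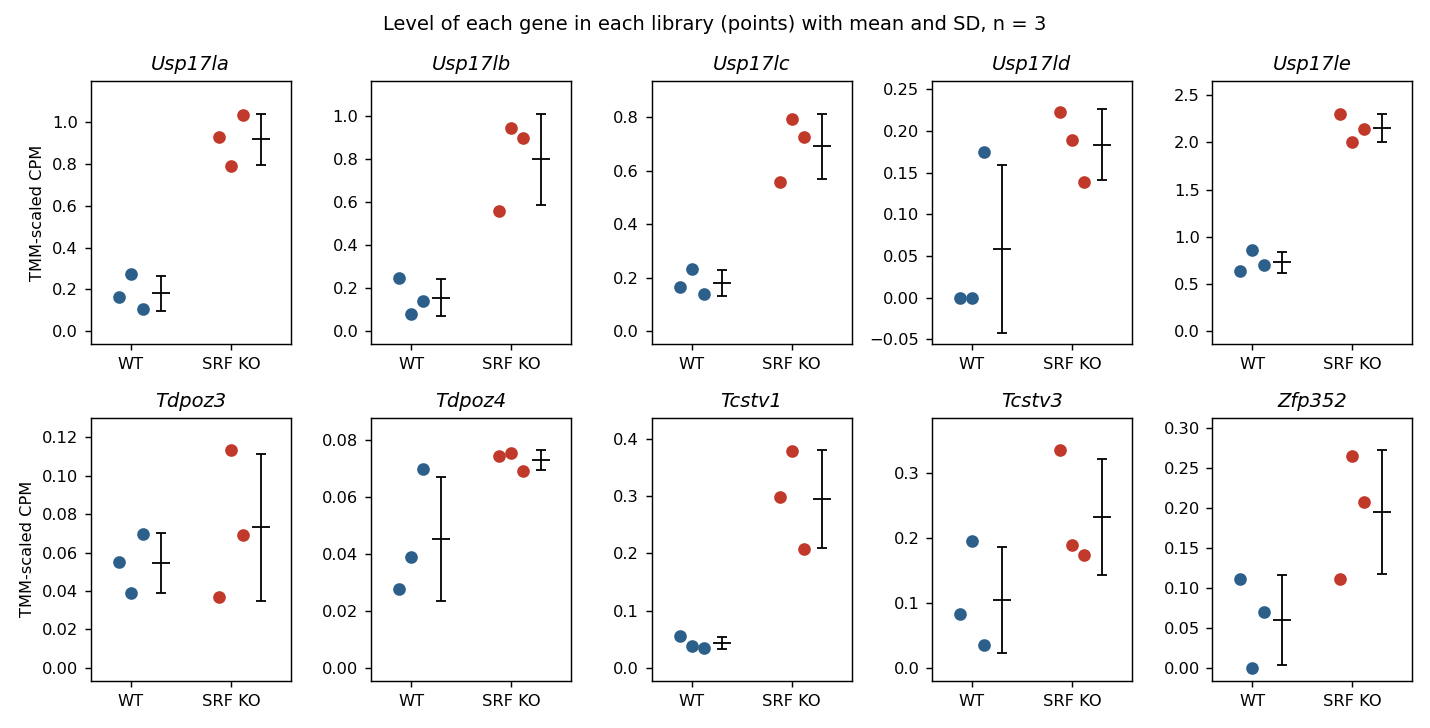
Level of each of the 10 genes (TMM-scaled CPM, linear axis that differs between panels) in the 3 WT (blue) and 3 SRF KO (red) libraries, with the mean and SD beside the points. The groups are apart for Usp17la, Usp17lb, Usp17lc, Usp17le and Tcstv1, touch for Zfp352 (0.111 against 0.110 CPM) and overlap for Usp17ld, Tcstv3, Tdpoz3 and Tdpoz4.

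How far the copies can be told apart depends on shared sequence. Of all 150-base stretches of the Usp17ld transcript, the length of 1 read, 36.1% occurred letter for letter in a transcript of another gene, and of those of Usp17lc 29.4%, all of them in each other. The share was 0.8% for Usp17le, 1.3% for Usp17la and 2.2% for Usp17lb. Reads from the shared stretches can have been split, given to 1 copy or dropped, since the counting program is not given in the sources used here, and single values of Usp17lc and Usp17ld are uncertain for that reason. The sum over the family does not depend on how its copies shared reads, as long as reads were not dropped.

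The mix of copies was compared too. Usp17le gave 34.9% to 42.5% of the counts of the 10 genes in the SRF KO libraries and 41.1% to 48.9% in the WT libraries, ranges that overlap. Usp17la gave 13.8% to 18.3% in SRF KO and 6.82% to 15.6% in WT, which overlap as well. Per kilobase of annotated exon, the order of levels in SRF KO was Usp17le (1.08 ± 0.0761 CPM per kb), Usp17lb (0.513 ± 0.135), Usp17la (0.346 ± 0.046), Usp17lc (0.282 ± 0.0495) and Usp17ld (0.0923 ± 0.0214; SD, n = 3). Usp17lb and Usp17la differed by less than the sum of their SDs, as did Usp17la and Usp17lc. In WT, Usp17le was again highest at 0.367 ± 0.0571 CPM per kb, and the other 4 copies lay between 0.0292 and 0.0994 with SDs that overlap. Of the other genes, Tcstv3 was the highest in SRF KO (0.298 ± 0.114 CPM per kb), next to Usp17la and Usp17lc, followed by Tcstv1 (0.210 ± 0.0609), Zfp352 (0.0854 ± 0.034), Tdpoz3 (0.0667 ± 0.0348) and Tdpoz4 (0.0656 ± 0.0031). Tcstv3 and Tcstv1 differed by less than the sum of their SDs. The same held from Usp17ld down for neighbours in this order (Usp17ld, Zfp352, Tdpoz3 and Tdpoz4).

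The Tcstv genes, on chromosome 13, were fewer in counts and higher in SRF KO as a sum. Tcstv1 lies at chr13:119893388-119894785 (minus strand) and Tcstv3 at chr13:120316878-120318178 (plus strand), with coding sequences 94.7% identical over 507 bases, but neither shared a 150-base stretch with another gene. The summed counts were 17, 15 and 11 in SRF KO and 5, 6 and 2 in WT. The mean levels were 0.526 ± 0.131 CPM (SRF KO) and 0.147 ± 0.0821 CPM (WT; SD, n = 3), without overlap. The log2 fold change of the sum was 1.83 (SE 0.42, edgeR adjusted p 0.0045). The sum passed the filter on low counts through the SRF KO libraries alone, with every WT library below the minimum level, so that it too could be tested with the filter only because it was high in SRF KO. Without the filter, the sum was at 1.835 with an edgeR adjusted p of 0.00301.

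Tcstv1 gave most of that difference. It had 8, 10 and 6 counts in SRF KO and 2, 1 and 1 in WT, so that every SRF KO library held at least 6 counts and no WT library more than 2. The ratio of pooled counts was 6.61, with a 95% counting interval of 2.27 to 26.2. Tcstv3 had 9, 5 and 5 counts in SRF KO and 3, 5 and 1 in WT. Its groups overlapped, since WT replicate 2 (0.194 CPM) lay above SRF KO replicates 2 and 3 (0.189 and 0.173 CPM), and the ratio was 2.33 (1.002 to 5.834). Neither gene passed the filter on its own.

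Zfp352, the zinc finger gene, was near the limit of detection. It had 3, 7 and 6 counts in SRF KO and 4, 0 and 2 in WT. After scaling, SRF KO replicate 1 (0.111 CPM) was just above WT replicate 1 (0.110 CPM), a difference smaller than 1 count, and the other SRF KO libraries were at 0.264 and 0.207 CPM. The ratio of pooled counts was 2.94, with a 95% counting interval of 1.09 to 9.16. The ratio of group means was 1.70 on the log2 scale, and 2.49 without WT replicate 1 and 1.11 without WT replicate 2.

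The Tdpoz genes, on chromosome 3, showed no difference that these depths could detect. Tdpoz4 (chr3:93796398-93797510) and Tdpoz3 (chr3:93826020-93827117), both on the plus strand and each with 1 exon, have coding sequences 79.2% identical. Tdpoz3 had 1, 3 and 2 counts in SRF KO and 2, 1 and 2 in WT. Tdpoz4 had 2, 2 and 2 counts in SRF KO and 1, 1 and 2 in WT. All 12 values were at or below 3 counts and the groups of both genes overlapped. The ratio of the summed counts, 12 against 9, was 1.47 with a 95% counting interval of 0.568 to 3.95, which allows a change in either direction. Of the 150-base stretches of Tdpoz3, 33.4% also occurred in Gm4982. Of those of Tdpoz4, 6.5% occurred in Gm4858, a further Tdpoz copy given below, and some of these in Gm5541 too.

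Of the other Tdpoz copies in the table, 1 held more counts than Tdpoz3 and Tdpoz4 together. Tdpoz1, Tdpoz5 and Gm10697 (named Tdpoz7 in RefSeq) had 0 counts in all libraries, and Tdpoz2 and Gm9125 (Tdpoz9) had 1 count each, in WT replicate 1. Gm4858 (Tdpoz8) had 3, 7 and 11 counts in SRF KO and 2, 0 and 1 in WT, without overlap between the groups. None of these 6 copies passed the filter.

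**Figure D2:**
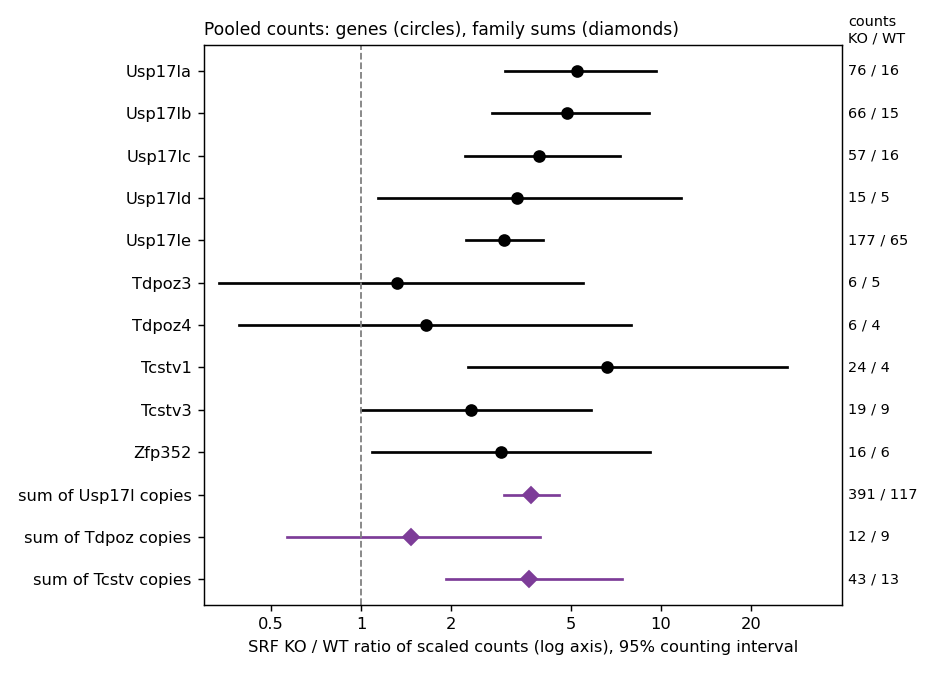
Ratio of pooled counts, SRF KO over WT (log axis, dashed line at 1), with its 95% counting interval, for the 10 genes (circles) and for the sums of the families with more than 1 gene (diamonds), and the pooled counts at the right. The intervals of Tdpoz3, Tdpoz4 and the Tdpoz sum include 1, that of Tcstv3 begins at 1.002, and the Usp17l sum has the narrowest interval (2.99 to 4.56).

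With the filter, 4 of the 10 genes could be tested and all 4 were called higher, beside 20.4% of the 15611 entries tested, but only Usp17le entered the test other than through high SRF KO values. Without the filter all 10 could be tested, and 5 passed the threshold as higher, beside 15.7% of the 21161 entries with at least 1 count and 12.8% of the 4826 entries whose summed counts lie within the range of these genes, 10 to 242. The fifth was Tcstv1, at 2.61 on the log2 scale (SE 0.65), for which edgeR's adjusted p was 0.00338. The other 5 were Usp17ld at 1.65 (0.156), Zfp352 at 1.5 (0.13), Tcstv3 at 1.18 (0.17), Tdpoz4 at 0.67 (0.626) and Tdpoz3 at 0.38 (0.793), each log2 fold change with its edgeR adjusted p. For 6 of the 10 genes the SRF KO libraries lay wholly above the WT libraries, beside 20.8% of all entries with at least 1 count and 19.9% of those within that range of summed counts. Among the 6, Zfp352 was apart only after scaling and by less than 1 count (0.1115 against 0.1105 CPM). By exact permutation of the libraries, two-sided, p was 0.1 for each of these 6, the smallest that 3 libraries against 3 can give. Groups that do not overlap always give that value, so it adds nothing to the count of 6.

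**Figure D3:**
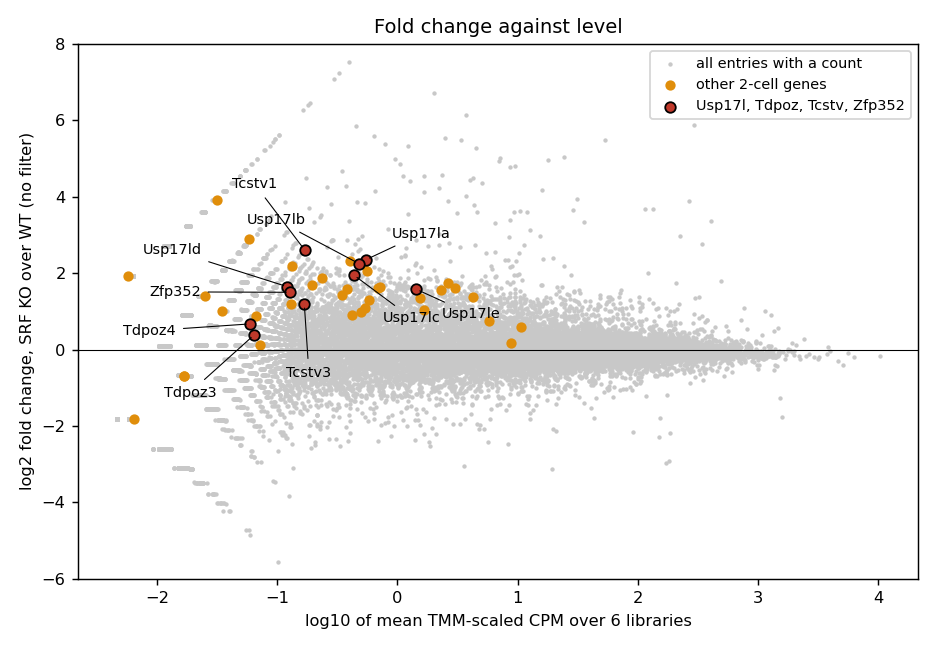
Log2 fold change, SRF KO over WT, fitted without a filter on low counts, against the log10 of the mean level over 6 libraries, for all entries with a count (grey), the list of other 2-cell genes (orange) and the 10 genes (red, named). All 10 genes lie above 0, at low levels where the grey points also spread widely; the Tdpoz genes lie closest to 0.

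Of 40 listed genes other than these 10, 37 were in the table and 19 passed the filter, of which 17 were higher in SRF KO and 2 (Obox6 and Pramef25) did not pass the threshold, beside the 20.4% higher over all entries tested. The median log2 fold change of the 19 was 1.37, and that of all entries tested was -0.02. As for the members, low genes enter such a count through their high group. Summed over the 37, the level was 60.8 to 63.0 CPM (SRF KO) and 31.2 to 34.1 CPM (WT). Ddit4l, Obox6 and Usp26 weigh most in that sum. Their means were 12.7, 9.28 and 7.27 CPM in SRF KO and 8.44, 8.19 and 4.30 CPM in WT. The smallest p-values on the list were those of Zscan4f (1.37, SE 0.17), Zscan4b (1.601, SE 0.20), Zscan4c (1.73, SE 0.22) and Zscan4a (1.56, SE 0.20), genes of a telomere-regulating zinc finger family, given as log2 fold changes with edgeR adjusted p between 5.05e-05 and 8.1e-05. Dux, the transcription factor that switches on this program, had 5, 6 and 4 counts in SRF KO and 2, 1 and 4 in WT, and its groups overlapped.

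MERVL, the retrovirus whose long terminal repeats serve as promoters at the 2-cell stage, was measured by subfamily. MERVL-int stood at 123, 132 and 132 CPM in SRF KO and 77.1, 89.7 and 77.7 CPM in WT, and its repeat MT2_Mm at 34.9, 36.4 and 35.2 CPM against 25.3, 25.8 and 26.3 CPM. The groups did not overlap in either element, with log2 fold changes of 0.66 (SE 0.06) and 0.46 (SE 0.06) and edgeR adjusted p of 9.67e-06 and 8.36e-05. Of the 7 elements listed, these 2 were higher, MT2A was lower (-0.18, edgeR adjusted p 0.0366), and MT2B, MT2B1, MT2B2 and MT2C_Mm did not pass the threshold. Over all entries tested, 20.4% were higher and 20.7% lower. The median log2 fold change of the 7 was -0.08, so that the rise is one of MERVL-int and MT2_Mm and not of the list.

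**Figure D4:**
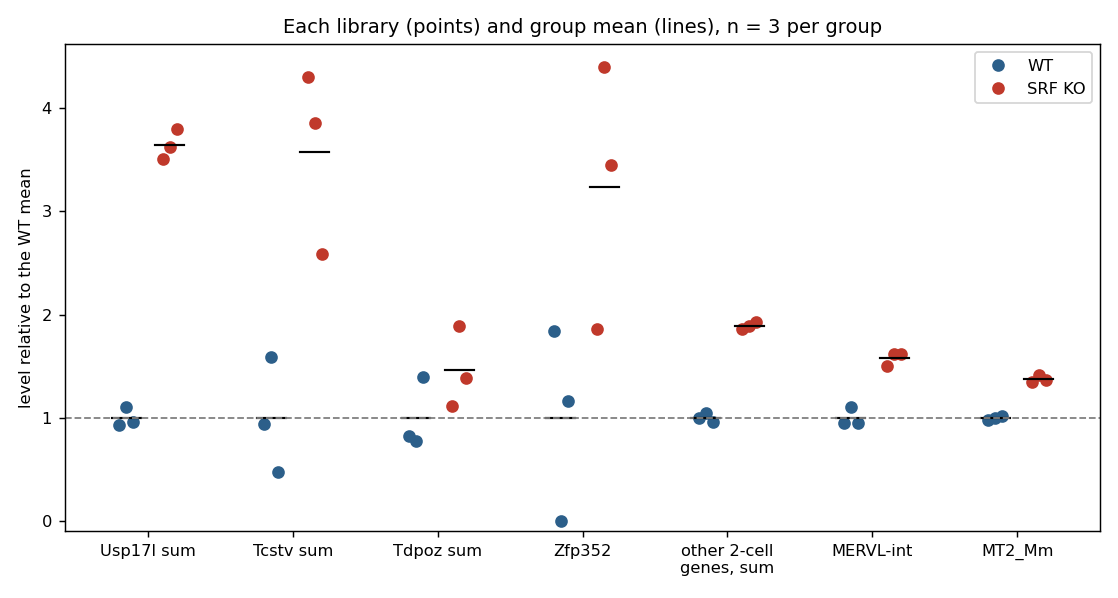
Level of each family sum, of Zfp352, of the sum of the other 2-cell genes and of the MERVL elements in each library (points, WT blue and SRF KO red), divided by the mean of the WT libraries, with group means as lines. The SRF KO points of the Usp17l and Tcstv sums, of the other 2-cell genes, of MERVL-int and of MT2_Mm lie above all WT points; those of Tdpoz overlap them and the lowest of Zfp352 meets the highest of WT.

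Known regulators of the 2-cell program were compared as well. Among the 5 activators tested, Dppa2, which acts upstream of Dux, rose from 114 ± 5.69 to 149 ± 6.76 CPM (SD, n = 3; log2 fold change 0.39, SE 0.06, edgeR adjusted p 0.000178) and Zscan4c rose as given above, while Dppa4, Nelfa and Trp53 did not pass the threshold. Among 25 repressors tested, 10 were lower and 2 higher, beside 20.7% lower and 20.4% higher over all entries, and their median log2 fold change was -0.12. Chaf1b, a subunit of the chromatin assembly factor CAF-1, fell from 95.9 ± 2.23 to 74.8 ± 1.77 CPM (log2 fold change -0.36, SE 0.05, edgeR adjusted p 0.000112). Myc, which is on the list of repressors and is 1 of the 2 that were higher, went the other way. It rose from 41.0 ± 0.379 to 87.8 ± 1.39 CPM (SD, n = 3, log2 fold change 1.10, SE 0.05, edgeR adjusted p 1.56e-08).

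The genes next to these loci were compared to see whether whole neighbourhoods moved, a comparison chosen after the values of the 10 genes were known. The nearest genes that passed the filter lay 102.5 to 1025.1 kb away. On either side of Usp17ld and Usp17lc, Trim68 and Trim6 did not pass the threshold (log2 fold changes -0.25 and 0.14). Below Usp17le, Trim30d was higher (1.36, SE 0.19, edgeR adjusted p 0.000151), and above Usp17la, Fam160a2 was at -0.02 and not called. Gm20767, itself on the list of 2-cell genes, lies between Tcstv1 and Tcstv3 and was higher (2.28, SE 0.47, edgeR adjusted p 0.00226), with 10, 28 and 34 counts in SRF KO and 6, 6 and 4 in WT, whereas Zfp131 on the other side of Tcstv1 was at 0.15 and not called. Of the genes flanking the Tdpoz pair, S100a10 and Them4 were both higher (0.79 and 0.34). Of those flanking Zfp352, Cdkn2b was higher (0.84) and Elavl2 lower (-0.31). Calls were common in these data, with 20.4% of all entries tested higher and 20.7% lower. Whether a called neighbour and the locus beside it changed together was not tested.

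By the likeness of their levels over the 6 libraries, entries close to the sum of the 10 genes were St3gal1, Fam46a, Clic5 and Itgb1, with Pearson's r of log2 CPM between 0.9992 and 0.9995 among 15607 entries compared. Since the libraries form 2 groups, r reflects mainly that these entries differ evenly between the groups, and no p is given. Their own log2 fold changes ran from 0.72 for Itgb1, an integrin subunit, to 2.78 for Clic5, a chloride intracellular channel protein.

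Markers of other cell types differed between the same libraries. All 10 fibroblast markers were higher in SRF KO, with a summed level of 861 to 1029 CPM against 425 to 480 CPM in WT and a median log2 fold change of 1.11. All 9 endoderm markers that passed the filter, of 10, were higher, with a summed level of 1550 to 1668 CPM against 127 to 139 CPM and a median of 3.68, while Afp was nearly absent (3, 1 and 3 counts against 0, 0 and 1). Of the 10 pluripotency markers, 5 were lower, 1 was higher and 4 did not pass the threshold, with a median of -0.19. The part of such cells in the levels of the Usp17l, Tcstv, Tdpoz and Zfp352 genes was not tested.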

How the data were processed

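The deposited table holds whole-number read counts by gene and transposable element subfamily for 6 libraries. Per the labels' protocols, total RNA was extracted with TRIzol, reads were paired with 150 bp each, and reads were cleaned of adaptors and of low-quality or empty sequences. The submitters' processing notes name the build mm10 and DESeq2, without a role; the aligner, counting program, annotation and strand setting are not given in the sources used here.

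Columns were matched to samples by title. One fit covered every entry (edgeR 4.0.16 in R 4.3.3): filterByExpr (minimum count 10), TMM scaling, quasi-likelihood test, Benjamini-Hochberg adjustment, threshold 0.05. SE is the log2 fold change divided by the square root of F. Family sums replaced the copies in the table before the same fit. Ratios use pooled counts over scaled library sizes, with exact 95% binomial intervals. The exact permutation test used log2(CPM + 0.1). Likeness used log2 CPM with a prior count of 2. Scripts were tested on simulated data.

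The members and lists were chosen with earlier results of these data known. Named genes are Srf, the 10 members, other copies passing the filter (none did), up to 4 genes with the smallest p from the 2-cell and regulator lists, MERVL-int, MT2_Mm and the 5 most alike entries, of which 1 is not reported here; others were chosen after their values were seen. Alternatives were DESeq2 1.42.0, RLE scaling, library totals alone, no filter, gene entries alone, a replicate block and each library left out. Gene positions and transcripts are from GENCODE M21, promoters from RefSeq. Python 3.11.15 and biopython 1.88 were used for sequences. Over entries with high counts, replicate libraries differed by a chi-square per degree of freedom of at least 1.98, more than counting error alone gives. Each library was counted as 1 replicate, but this value does not show that the libraries were separate cultures or clones.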

Additional observations from a re-analysis of the deposited data

How the results depend on the processing

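Under all alternatives run, 4 of the 10 genes were called higher, or 5 without the filter. Over all entries, 20.4% were higher in the main fit and 15.7% without the filter. The steady count is partly set by the filter, since only 4 genes were tested wherever it was used. In the main fit Usp17la, Usp17lb and Usp17lc passed it through SRF KO alone. The sums of Usp17l and Tcstv stayed past the threshold in the same direction under all alternatives, as did Srf. Leaving out one library at a time gave log2 fold changes of 1.82 to 1.95 for Usp17l, 1.53 to 2.24 for Tcstv, 0.329 to 0.863 for Tdpoz (largest without WT replicate 3) and 1.11 to 2.49 for Zfp352, the last 2 without a test. With the Tdpoz copies named as such in RefSeq added, an alternative chosen after seeing the data, the Tdpoz ratio was 1.42 on the log2 scale; Gm4858 brings most of the added counts. Usp17ld was at 1.08 without WT replicate 1 or 2, and without WT replicate 3 it gave no finite value. Tcstv3 was at 1.98 without WT replicate 2, and Tdpoz3 at -0.03 without SRF KO replicate 2. Same-numbered libraries are taken as unpaired, since the labels state no pairing. Their deviations correlated at 0.042, 0.203 and 0.096, and 4 of 6 libraries correlated best with the library of their own number. These values do not exclude a pairing. With the replicate block the Usp17l sum was at 1.87, the Tcstv sum at 1.86, Srf at -3.12, and 4 genes were called. Depth limits Tdpoz3, Tdpoz4, Zfp352 and Usp17ld, which had at most 7 counts in any library.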
